A study of Mus musculus with 5 samples.

Results

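The C/EBP and Kruppel-like transcription factors of myeloid cells were compared between dendritic cells (DC) sorted from mouse brain and monocytes sorted from mouse bone marrow. Members were 4 C/EBP genes (Cebpa, Cebpb, Cebpd and Cebpe) and 6 Kruppel-like genes (Klf2, Klf3, Klf4, Klf6, Klf10 and Klf13), and a probe set was read when the array annotation gave it exactly 1 symbol and that symbol was a member. The rule found 24 probe sets for 9 of the 10 genes, out of 34945 single-symbol probe sets for 18193 genes. Cebpe had no probe set in the annotation used. All mice were female C57BL/6, aged 6 to 8 weeks. The brain DC were lineage-negative, CD45-high, CD11c-positive cells (2 arrays) from mice that had received 1000000 B16-Flt3L tumour cells under the skin 12 days before harvest; this melanoma line secretes Flt3 ligand, a growth factor that expands DC. The monocytes were SSC-low, CD11b-high, CD115-positive bone marrow cells (3 arrays), for which the labels give no treatment. Cell type, tissue and Flt3L tumour therefore separate the groups alike, and their effects cannot be told apart. The labels do not say whether the samples of a group came from separate animals or pools, so every p-value below is set against a spread that may be technical only.

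C/EBP proteins are basic leucine zipper factors that bind DNA as dimers, with one another or with related zipper proteins. In bone marrow, C/EBPa opens the granulocyte and monocyte programme, C/EBPb acts in emergency granulopoiesis and in monocyte survival, C/EBPd is an acute phase and inflammatory factor, and C/EBPe acts in late granulocyte maturation. Kruppel-like factors carry C-terminal zinc fingers that bind GC-rich and CACCC elements, and differ in their N-terminal parts, which activate or repress. In myeloid cells KLF4 is needed for monocyte formation, KLF2 restrains inflammatory activation, and KLF6 is a rapidly induced factor that promotes it.

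The deposited values are RMA values taken as log2 and centred for each probe set, so a value states how far an array lies from that probe set's own centre. The centre is not that of these 5 arrays, since the probe set of Klf10 read 1.14 to 1.74 over all of them. The values show differences between arrays and carry no level of one gene against another. Array medians lay between -0.05 and 0.00. The SD of the difference between replicate arrays over all probe sets was 0.33 to 0.43. All 24 poly-A spike-in probe sets, which report RNA added during labelling, were higher in brain DC, with a median difference of 2.59. This difference runs with the groups as well, and its part in the gene differences was not tested. Over all genes the median difference, brain DC minus monocyte, was 0.09 and the median absolute difference was 0.31. Of the 18193 genes tested with limma at a Benjamini-Hochberg adjusted p of 0.05, 3068 (16.9%) were higher and 3083 (16.9%) were lower in brain DC, and 10944 (60.2%) had groups that did not overlap. All 10 listed conventional DC genes were higher in brain DC (median 3.48), and 7 of 8 measured monocyte genes were lower (median -1.84), Cd14 being the higher one. These lists were chosen with earlier results of these data known, and the counts compare the groups without testing what either population was.

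Among the 9 measured members, Klf6 was higher in brain DC, Cebpd and Klf3 were lower, and 6 genes were not called. The median difference of the members was -0.25. Of these genes, 5 had groups that did not overlap. Counts of 1 higher, 2 lower and 5 without overlap are near the shares of all genes given above, so they are no result about these families as a whole. The results lie in single genes and in how the probe sets of a gene differ from each other.

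**Figure D1:**
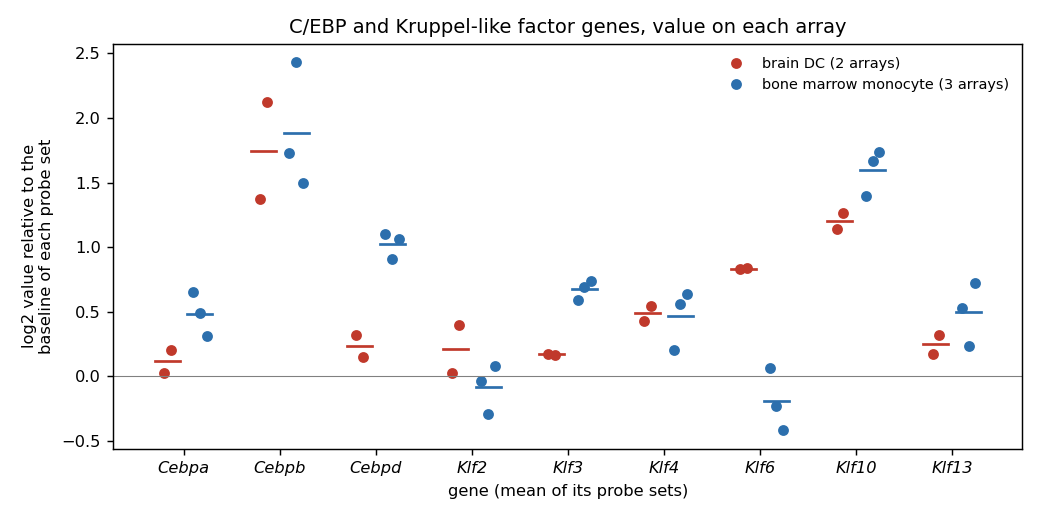
Gene mean of each member on each array, in log2 units centred per probe set, for 2 brain DC and 3 bone marrow monocyte arrays; points are arrays and lines are group means. Klf6 lies between 0.83 and 0.84 in brain DC, above all monocyte arrays, while Cebpd and Klf3 lie below them.

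Cebpd, the acute phase member, was lower in brain DC. Its gene mean was 0.32 and 0.15 on the brain DC arrays and 1.10, 0.91 and 1.06 on the monocyte arrays. Both brain DC values lie below every monocyte value. The difference was -0.79 ± 0.13 (SE, 2 against 3 arrays; 95% interval -1.10 to -0.48), or 1.73-fold lower, with a limma adjusted p of 0.00326. Cebpd has 2 probe sets, and they do not share this difference equally. Probe set 1423233_at read 0.51 and 0.29 in brain DC against 2.01, 1.54 and 1.80 in monocytes, a difference of -1.39 ± 0.19 (2.62-fold lower; limma adjusted p = 0.00160 over all probe sets). Probe set 1456605_at read 0.13 and 0.00 against 0.19, 0.28 and 0.32. Its groups do not overlap either, but its difference of -0.20 ± 0.15 was not called (limma adjusted p = 0.374). The difference between the probe sets was itself past the threshold, at -1.19 ± 0.24 (limma adjusted p = 0.0130), although not without monocyte replicate 1 (limma adjusted p = 0.0546). Over all probe sets tested, 5517 (12.2%) were higher and 6959 (15.5%) lower in brain DC.

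Cebpb, the inflammatory and survival factor, had a gene mean that did not separate the groups. The mean of its probe sets was 1.37 and 2.13 in brain DC and 1.73, 2.43 and 1.49 in monocytes, so that the groups overlap. The difference was -0.14 ± 0.31 (95% interval -0.87 to 0.60; limma adjusted p = 0.768), an interval that includes no difference as well as a fall by 0.87. That mean joins probe sets that point in opposite directions. Probe set 1418901_at, designed from the gene's own RefSeq transcript, read 1.74 and 2.29 in brain DC against 2.68, 3.17 and 2.60 in monocytes. These groups do not overlap, and the difference was -0.80 ± 0.24 (limma adjusted p = 0.0444). Probe set 1427844_a_at, whose suffix marks probes shared by transcripts of 1 gene, read 1.00 and 1.97 against 0.78, 1.69 and 0.39, which overlap, with a difference of 0.53 ± 0.41 (limma adjusted p = 0.395). The first minus the second was -1.33 ± 0.28 (95% interval -1.98 to -0.68; limma adjusted p = 0.0155). With brain DC replicate 1 left out, 1418901_at was no longer called (-0.53; limma adjusted p = 0.218), nor with monocyte replicate 1 (0.0846), 2 (0.109) or 3 (0.0513) left out. The difference between the probe sets lost its call without brain DC replicate 2 (limma adjusted p = 0.0660) or monocyte replicate 1 (0.0672).

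Cebpa, the factor of granulocyte and monocyte commitment, has 1 probe set. It read 0.03 and 0.20 in brain DC and 0.65, 0.49 and 0.31 in monocytes. The groups do not overlap, but the difference of -0.37 ± 0.15 was not called (95% interval -0.71 to -0.03; limma adjusted p = 0.0930). With 2 and 3 arrays the smallest two-sided p that an exact permutation test can give is 0.1.

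Klf6, the rapidly induced factor, was the member that was higher in brain DC. Its gene mean was 0.83 and 0.84 on the brain DC arrays and 0.06, -0.23 and -0.42 on the monocyte arrays, without overlap. The difference was 1.03 ± 0.16 (95% interval 0.64 to 1.41), or 2.04-fold, with a limma adjusted p of 0.00267. The size of this difference exceeded that of 86.9% of all genes. All 5 Klf6 probe sets had a positive difference, and 2 of them were called. Probe set 1427742_a_at read 0.43 and 0.71 in brain DC against -1.61, -1.81 and -1.76 in monocytes, a difference of 2.29 ± 0.16 (4.90-fold; limma adjusted p = 1.07e-04). Probe set 1459718_x_at, whose suffix marks probes that can also match other genes, read 1.16 and 1.24 against 0.52, 0.45 and -0.49, a difference of 1.03 ± 0.30 (2.05-fold; limma adjusted p = 0.0399). It was no longer called with brain DC replicate 1 (limma adjusted p = 0.108), brain DC replicate 2 (0.124) or monocyte replicate 2 (0.0515) left out. The remaining 3 had differences of 0.77, 0.61 and 0.44 and were not called, and 1418280_at, designed from the RefSeq transcript, was one of them (0.61 ± 0.36; limma adjusted p = 0.263). Probe set 1427742_a_at differed from each of the other 4 by 1.26 to 1.85, all past the threshold, while none of the 6 pairs among those 4 did. The size of the Klf6 difference therefore rests on which probe set is read: 2.29 from 1427742_a_at alone and 0.44 to 1.03 from the others. The lower values also rest on single arrays: 1447448_s_at was 0.13 with monocyte replicate 3 left out, and 1418280_at was 0.26 with monocyte replicate 2 left out.

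Klf3, a repressor that recruits CtBP, was lower in brain DC by its gene mean. The mean was 0.17 and 0.16 in brain DC and 0.59, 0.69 and 0.74 in monocytes, without overlap. The difference was -0.51 ± 0.12 (95% interval -0.79 to -0.22), or 1.42-fold lower, with a limma adjusted p of 0.0163. This call was lost when brain DC replicate 1 (limma adjusted p = 0.0544), brain DC replicate 2 (0.0524) or monocyte replicate 3 (0.0574) was left out. Its 7 probe sets fall on both sides of 0. Brain DC read lower on 4 of them, and 3 were called: 1429360_at at -1.21 ± 0.15, 1441200_at at -1.13 ± 0.16 and 1454666_at at -1.23 ± 0.17, with limma adjusted p between 0.00120 and 0.00189. On 1429360_at the brain DC arrays read 0.03 and 0.10 and the monocyte arrays 1.20, 1.21 and 1.41. The 4th, 1442920_at, was -0.79 ± 0.25 (limma adjusted p = 0.0538). The other 3 were positive and not called: 1421604_a_at, designed from the RefSeq transcript, at 0.17, 1431630_a_at at 0.17 and 1458487_at at 0.48. Of the 21 pairs of Klf3 probe sets 10 differed, each between one of these 3 and one of the 4 low ones.

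Klf4, the factor of monocyte formation, did not differ by its gene mean, at 0.43 and 0.55 in brain DC and 0.20, 0.56 and 0.63 in monocytes. The groups overlap, and the difference was 0.02 ± 0.16 (95% interval -0.35 to 0.40; limma adjusted p = 0.925). Its probe sets again lie on either side of 0. Probe set 1417394_at had a difference of -0.45 ± 0.19 and 1417395_at one of 0.49 ± 0.23, neither called. The first minus the second was -0.94 (95% interval -1.63 to -0.25; limma adjusted p = 0.0579). On each of the 2 probe sets the groups did not overlap, as on 55.4% of all probe sets. Probe set 1417395_at was called higher without monocyte replicate 3 (0.71, limma adjusted p = 0.0373). It was also called with the replicate number as a block (limma adjusted p = 0.0378).

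Klf2, the brake on inflammatory activation, has 1 probe set. It read 0.03 and 0.40 in brain DC and -0.04, -0.30 and 0.08 in monocytes; the groups overlap and the difference of 0.30 ± 0.17 was not called (95% interval -0.10 to 0.70; limma adjusted p = 0.224). Klf10, a gene first described as an early target of TGF-beta, read 1.14 and 1.27 in brain DC and 1.40, 1.67 and 1.74 in monocytes. Its groups do not overlap, and its difference of -0.40 ± 0.15 missed the threshold (95% interval -0.74 to -0.05; limma adjusted p = 0.0751). Klf13, known as an activator of Ccl5 in lymphocytes, had a gene mean of 0.17 and 0.32 in brain DC and 0.53, 0.24 and 0.72 in monocytes. These overlap, and the difference was -0.25 ± 0.17 (limma adjusted p = 0.293). One of its 3 probe sets, 1436316_at, was lower by itself at -0.91 ± 0.25 (limma adjusted p = 0.0317), reading -0.19 and 0.25 against 0.88, 0.59 and 1.34; it was no longer called with brain DC replicate 1 (limma adjusted p = 0.157), monocyte replicate 1 (0.0801) or monocyte replicate 3 (0.0674) left out. The other two were at 0.12 and 0.05, and 1432543_a_at differed from 1436316_at by 1.03 (limma adjusted p = 0.0124).

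**Figure D2:**
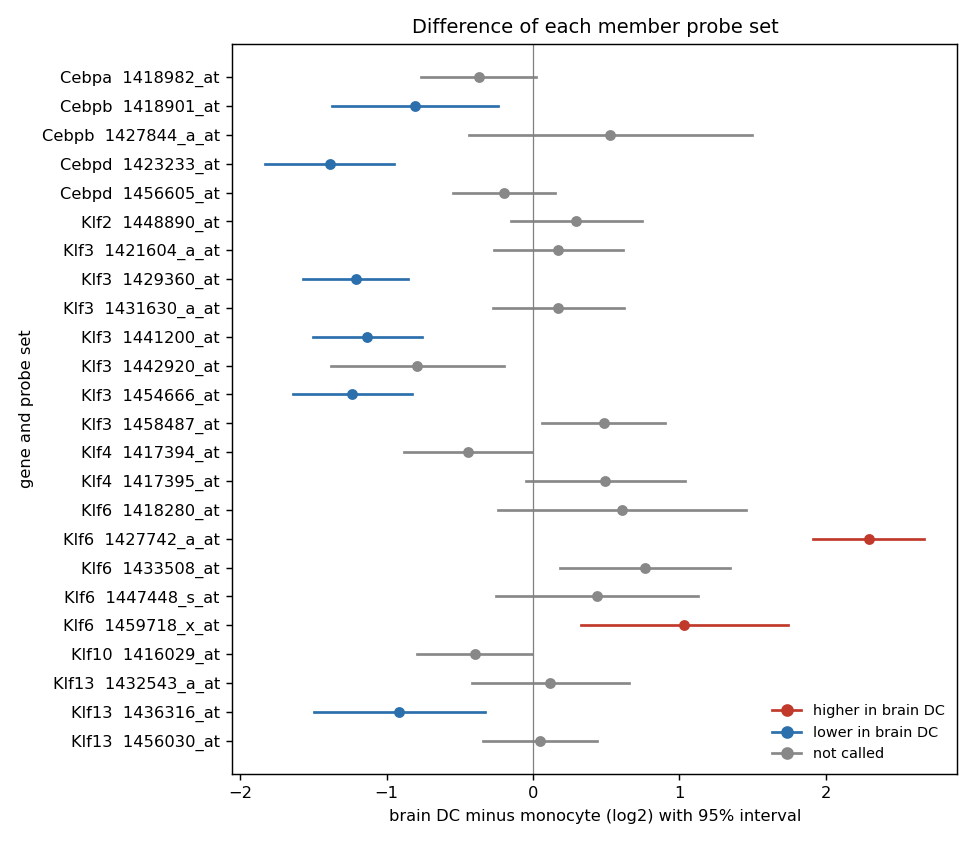
Difference of each of the 24 member probe sets, brain DC minus monocyte in log2 units, with its 95% interval from limma; red and blue mark probe sets called higher and lower. The 2 probe sets called higher belong to Klf6, and the 6 called lower to Cebpb, Cebpd, Klf3 and Klf13, each of which also has a probe set that was not called.

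Over all members, 2 probe sets were higher, 6 lower and 16 not called, and 16 of the 24 had groups that did not overlap. Of the 6 lower, 3 belong to Klf3. Over all probe sets tested, 12.2% were higher and 15.5% lower in brain DC, and 24952 of 45037 (55.4%) did not overlap. Of the measured genes 6 had several probe sets, and 17 of their 37 within-gene pairs differed in their brain DC to monocyte difference: 1 of 1 in Cebpb, 1 of 1 in Cebpd, 10 of 21 in Klf3, 4 of 10 in Klf6, 1 of 3 in Klf13 and 0 of 1 in Klf4 (limma; test chosen after seeing the data). The count over members was 8 without monocyte replicate 1. Over all genes 6973 of 30372 such pairs (23.0%) differed. Pairs of 1 gene share probe sets, so the member pairs are not independent of each other. The files give no probe positions, and which part of a transcript each probe set reads was not analysed here.

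The promoters of Klf6, Klf3 and Cebpb are shown because they belong to genes on which the account turns and that the RefSeq promoter table (GRCm38.p6) holds. Klf6 was higher in brain DC and Klf3 was lower. The probe sets of Cebpb had differences of opposite sign, of which the positive one was not called. Klf3, Klf4 and Klf13 also had probe sets on both sides of 0. Each run is the 250 bases before the annotated start, on the plus strand, 5′ to 3′, at chr13:5861239-5861488 for Klf6, chr5:64803271-64803520 for Klf3 and chr2:167688665-167688914 for Cebpb. Capitals mark CCAAT, the CACCC element that Kruppel-like factors bind, and GGGCGG, the GC box of Sp and Kruppel-like factors, on either strand.
Klf6: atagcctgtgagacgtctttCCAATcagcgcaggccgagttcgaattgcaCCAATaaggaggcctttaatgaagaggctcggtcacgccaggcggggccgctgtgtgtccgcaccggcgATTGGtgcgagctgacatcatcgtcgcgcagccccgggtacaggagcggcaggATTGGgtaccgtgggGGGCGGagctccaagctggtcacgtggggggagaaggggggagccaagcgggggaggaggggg
Klf3: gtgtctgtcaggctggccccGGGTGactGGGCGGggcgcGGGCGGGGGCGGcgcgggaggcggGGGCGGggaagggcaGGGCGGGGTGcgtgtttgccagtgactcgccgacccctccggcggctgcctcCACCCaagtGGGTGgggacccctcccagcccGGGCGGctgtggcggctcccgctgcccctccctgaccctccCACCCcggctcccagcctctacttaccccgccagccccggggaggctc
Cebpb: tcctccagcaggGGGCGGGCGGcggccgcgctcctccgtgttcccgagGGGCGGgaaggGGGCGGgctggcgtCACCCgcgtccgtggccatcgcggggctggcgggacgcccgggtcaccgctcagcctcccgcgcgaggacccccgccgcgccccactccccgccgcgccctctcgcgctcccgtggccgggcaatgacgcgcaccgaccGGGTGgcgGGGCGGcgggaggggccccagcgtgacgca

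The Klf6 window holds CCAAT 4 times, GGGCGG once and no CACCC; the Klf3 window holds GGGCGG 6 times and CACCC 5 times; the Cebpb window holds GGGCGG 5 times and CACCC 2 times. Overlapping matches count separately. Promoters of 7 of the 10 members were in the table, and Cebpd, Cebpe and Klf10 were not. In windows of 300 bases, the 250 before and 50 after the start, GGGCGG was found in 6 of the 7 members (35.7% of 32851 windows of all genes), CACCC in 5 (57.5%) and CCAAT in 2 (37.4%). The cyclic AMP element TGACGTCA (1.79% of all windows), the C/EBP motif TTGCNNAA (10.8%) and the CArG box of serum response factor (1.63%) had no match in the 7 members. TATAAA (13.6%) was found in Cebpa and Cebpb. Member windows were 63.0% to 80.7% G and C, against a median of 52.7% for all windows, which bears on how often the GC-rich motifs match. A match is a stretch of letters and no binding was measured.

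Other family members moved in both directions. Over all genes 16.9% were higher and 16.9% lower in brain DC. The calls among the 12 measured relatives are near these shares, so they are no result about the families. Both remaining C/EBP genes were called. Cebpg, a dimer partner with little activation function of its own, read 0.31 and 0.27 in brain DC and 1.34, 1.27 and 0.94 in monocytes, without overlap, and was 1.86-fold lower (-0.89 ± 0.15; limma adjusted p = 0.00372). Ddit3, which encodes the stress-induced partner CHOP, read 0.52 and 0.25 against -0.42, -0.49 and -0.34, without overlap, and was 1.74-fold higher (0.80 ± 0.14; limma adjusted p = 0.00360). Of 10 measured Kruppel-like genes outside the members, Klf16 was higher (0.97 ± 0.18; 1.96-fold; limma adjusted p = 0.00581) and Klf11, related to Klf10, was lower (-1.07 ± 0.32; 2.10-fold; limma adjusted p = 0.0385). The Klf11 call was lost when brain DC replicate 1 (limma adjusted p = 0.137) or brain DC replicate 2 (limma adjusted p = 0.111) was left out. Klf8 was not measured, and the remaining 8 genes were not called. Their differences were -0.16 for Klf9, 0.03 for Klf7, 0.07 for Klf12, 0.10 for Klf15, 0.14 for Klf1, 0.18 for Klf17, 0.19 for Klf14 and 0.20 for Klf5. Probe sets of 1 gene also spread here: those of Cebpg lay at -1.78, -0.84 and -0.06, the 7 of Klf9 between -1.13 and 0.37, and 1451021_a_at of Klf5 was called higher at 0.93.

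**Figure D3:**
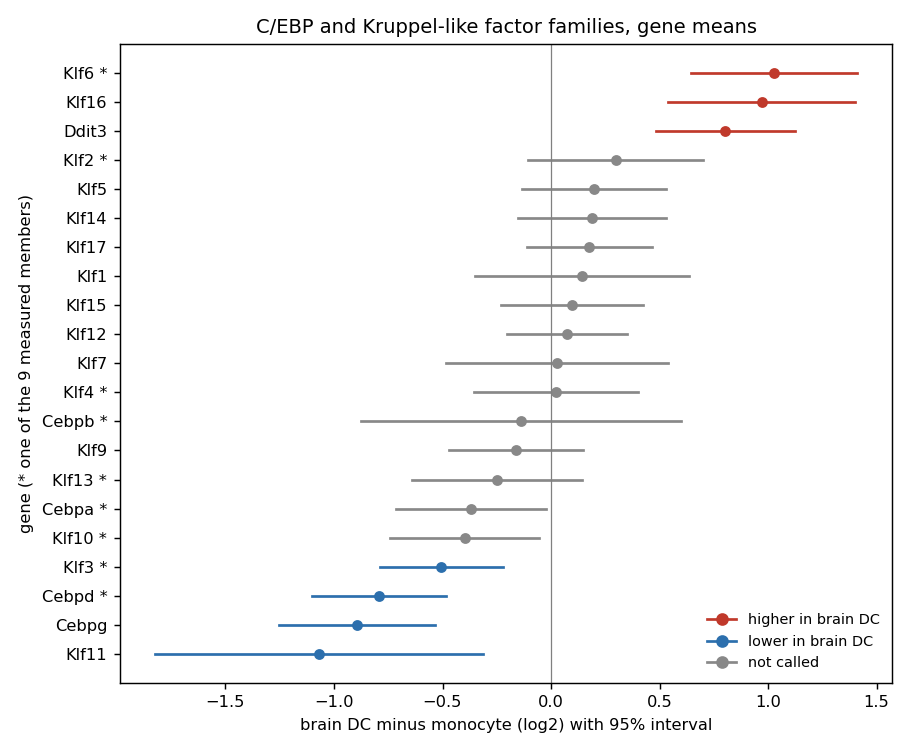
Difference of each C/EBP and Kruppel-like gene measured, members and relatives, brain DC minus monocyte in log2 units with 95% intervals; colour marks genes called higher or lower. Klf6, Ddit3 and Klf16 lie above 0 and Cebpd, Cebpg, Klf3 and Klf11 below.

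Genes around the C/EBP proteins were also read, as lists that were chosen with results of these data known. Over all genes 16.9% were higher and 16.9% lower in brain DC. Of 15 partners and regulators 8 were higher and 2 lower (median 0.65, all genes 0.09), and 1 of the 15, Batf3, is also in the conventional DC list. Atf3, a stress-induced zipper protein, rose most (3.64 ± 0.21), Batf3, a zipper factor of cross-presenting DC, was higher by 3.11, and Trib1, which directs C/EBPa to degradation, by 1.91 ± 0.19, while Myb, a progenitor factor, was lower (-2.22 ± 0.40). Leaving out either brain DC array, or monocyte replicate 2 or 3, reduced the 2 lower genes to 1. Known granulocyte and monocyte targets of C/EBP factors fell in 8 of 14 cases (median -1.23) and the other 6 were not called. Of the 14, 5 are also in the neutrophil marker list below and 2 in the monocyte marker list. The neutrophil collagenase Mmp8 (-4.76) and the azurophil granule genes Mpo (-4.64 ± 1.02), Prtn3 (-4.53) and Ctsg (-3.57) had the largest falls. Mpo varied among the monocyte arrays, at 1.81, 5.72 and 5.22, and with brain DC replicate 1 or 2 left out it was no longer called (limma adjusted p = 0.0512 and 0.0523). Targets were split into this list and an inflammatory one with results known, so their directions do not test a contrast between target classes. Inflammatory targets were higher in 8 of 11 cases (median 1.83): Il1b by 6.06, Ptgs2 by 3.75, Il6 by 3.70 and Ccl3 by 3.30. The acute phase gene Hp was the one lower (-3.05).

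On the Kruppel-like side, the Sp factors, which bind the same GC boxes, were lower in all 3 measured cases: Sp3 (-1.55), Sp4 (-0.84) and Sp1 (-0.82). Of 6 corepressor genes Sin3a (-1.16) and the CtBP gene Ctbp1 (-0.65) were lower and Sin3b (0.55) higher. The other CtBP gene, Ctbp2, was at -0.06 and was not called. With an array left out, Ctbp1 was no longer called in 2 cases (brain DC replicate 1, limma adjusted p = 0.102; monocyte replicate 3, 0.0555) and Sin3b in 1 (brain DC replicate 2, 0.0509). Sin3b was at 0.080 from its probe sets without a suffix, and Sin3a was not called from the median of its probe sets (limma adjusted p = 0.0711). Of 7 measured targets of KLF2 and KLF4, 5 were higher (median 0.59), among them the LPS co-receptor Cd14 (2.31), the cell cycle inhibitor Cdkn1a (2.02) and Nos3 (1.27). Thbd, encoding thrombomodulin, was lower (-1.86). Of these targets Cd14 is also in the monocyte marker list, and 1 other is also among the inflammatory targets above. Leaving out brain DC replicate 2 or monocyte replicate 3 reduced the 5 higher targets to 3. Of 8 genes of the KLF10 and TGF-beta group 3 were higher and 1 lower (median 0.10), with Skil at 2.65, Smad7 at 1.36, Tgfb1 at 0.93 and Smad2 at -0.81. Smad2 lost its call without brain DC replicate 2 (limma adjusted p = 0.0626).

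Klf6 and Atf3 are both rapidly induced genes, and the immediate early genes moved widely: 16 of 18 were higher in brain DC (median 2.83), led by Egr1 (5.39), Fosb (5.06), Egr3 (4.12) and Nr4a2 (4.07). Fos (-0.38) and Fosl2 (0.01) were not called. No member other than Klf6 was called higher beside these genes. Klf10, the early target of TGF-beta, was at -0.40, Cebpb at -0.14, Klf2 at 0.30 and Klf4 at 0.02, none called. Cebpd, the acute phase member, was lower (-0.79). The mean of the list was 0.80 to 1.00 on the brain DC arrays and -1.89 to -1.49 on the monocyte arrays. Heat shock genes were higher in 6 of 9 cases (median 1.16), with Hspa1a at 3.07. These values stand beside the Klf6 and inflammatory target results, and their part in them was not tested.

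**Figure D4:**
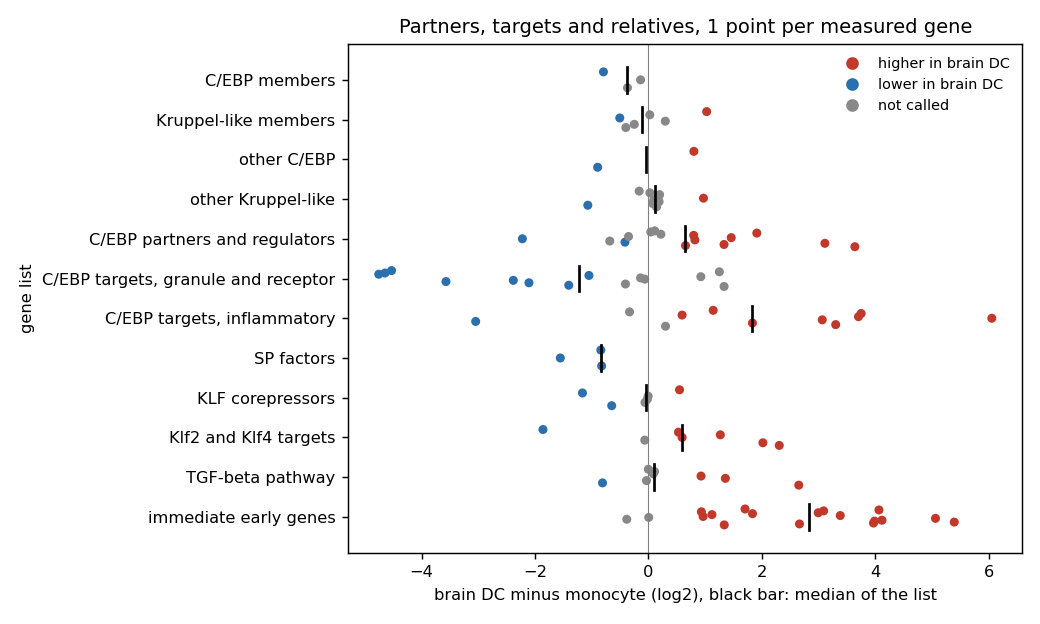
Difference of each gene in the lists, brain DC minus monocyte in log2 units, one row per list with its median as a bar. Immediate early genes and inflammatory targets lie mostly above 0 (medians 2.83 and 1.83), and granulocyte and monocyte targets mostly below (median -1.23). The lists were chosen with results of these data known.

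Markers of other cell types present in brain or blood were read as well. The gate on lineage-negative, CD45-high cells is meant to leave out endothelial and neural cells, which lack CD45, microglia, which carry little of it, and cells bearing lineage markers; the labels do not name the lineage antibodies. Microglial genes were higher in brain DC in 8 of 9 measured cases (median 2.09; list mean 1.60 to 1.77 in brain DC and -0.81 to -0.55 in monocytes). Endothelial genes were higher in 6 of 9, and in 3 of 9 without brain DC replicate 1 (median 0.67; 0.25 to 0.32 against -0.45 to -0.39), lymphocyte and NK genes in 4 of 8 (median 0.36; 0.60 to 0.80 against -0.71 to -0.63), and neural and choroid genes in 1 of 9, or 4 of 9 when the probe set of largest spread stood for each gene (median 0.27; 0.89 to 0.96 against -0.13 to -0.07), where Ttr, a choroid plexus transcript, was at 7.22. Among the lymphocyte and NK genes, Klrd1 was at 6.29 and Gzma at 2.75. In the same list Ncr1 (0.10), Prf1 (0.27), Cd3e (0.19) and Cd79a (-0.14) were not called. In the neural and choroid list, Folr1 (0.22) and Kl (0.41) were not called by their gene means. Of 8 neutrophil genes Cd177 (-5.67) and Mmp8 were lower, S100a9 (1.41) was higher and 5 were not called. Their median was 0.40, and the list mean was 1.90 to 2.09 in brain DC and 2.12 to 3.13 in monocytes. Proliferation genes were lower in 5 of 9 and higher in 1, which was lost without brain DC replicate 1 (median -1.23; -0.19 to 0.02 against 0.51 to 1.39). Whether a marker was at 0 cannot be read from centred values, and the part of these cells in the differences of the C/EBP and Kruppel-like genes was not tested. In bulk samples fewer cells of a type and less RNA per cell cannot be told apart.

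Over the 5 arrays, the genes whose centred values lay nearest to those of Klf6, by root mean square distance, were Ms4a1 (0.0351; difference 1.00), Wdr75 (0.0545; 0.95) and Ring1 (0.0557; 1.08). Nearest to Cebpd were Tbk1 (0.0197; -0.78), Flvcr1 (0.0338; -0.83) and Apc (0.0430; -0.78). With 5 arrays in 2 groups this likeness describes these libraries only.

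**Figure D5:**
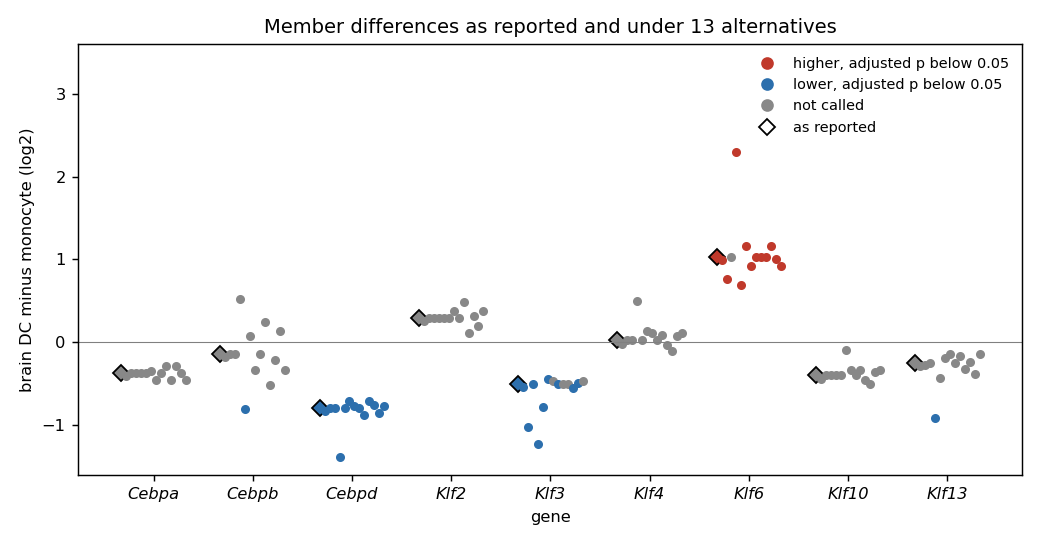
Difference of each measured member as reported (diamond) and under 13 alternatives (points), in log2 units, coloured by whether the adjusted p was below 0.05. Cebpd stays below 0 and called in all 13, Klf6 lies between 0.69 and 2.29 and is called in 12, and Klf3 is called in 9.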

How the data were processed

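RNA of 5 sorted samples was hybridised as biotinylated cRNA to Affymetrix mouse arrays, per the labels' protocols. The authors' deposited table holds RMA values, per the submitters' processing notes, and these log2 values lie centred on each probe set. The log base is taken from what RMA gives, and the sources used here name neither the RMA version nor the centring step. Of 45101 probe sets 64 controls were left out. Probe sets with 1 symbol in the platform annotation (34945; 932 had several and 9160 none) were averaged per gene, with no filter on low values, since centred values carry no level. limma 3.58.1 in R 4.3.3 compared brain DC (2 arrays) with monocytes (3 arrays) over all genes and over all probe sets, with Benjamini-Hochberg adjustment at 0.05 (3 residual and 4.43 prior degrees of freedom). Differences between probe sets of a gene were fitted the same way. The number of arrays limits the precision. Genes named beyond the members and relatives are up to 4 per list by absolute difference among those called. Hp, Fos, Fosl2, Ctbp2, Ncr1, Prf1, Cd3e, Cd79a, Folr1 and Kl were named after their values were seen. Members and lists were chosen with earlier results of these data known. The fits were tested on simulated data. Alternatives covered scaling, the summary per gene, the variance model, the replicate number as a block and leaving out each array. Microglia and spleen DC, which the series also names, were not analysed here.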

Additional observations from a re-analysis of the deposited data

How the results depend on the processing

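Of the 39 combinations of the 3 called members with 13 alternatives, 34 kept the call. Cebpd kept it in 13 (-1.39 to -0.70; adjusted p 0.00132 to 0.0410). Klf6 lost it without variance moderation (adjusted p = 0.0617). Klf3 lost it under the replicate block (-0.47; adjusted p = 0.0650) and in the array omissions given above. Cebpb was called at -0.80 from probe sets without a suffix (adjusted p = 0.0319). Only 1418901_at lacks one, so this is that probe set's difference again. By itself 1418901_at also lost its call under quantile normalisation (adjusted p = 0.126), trend and robust variance (0.0844) and no variance moderation (0.208). Klf13 was called at -0.91 from its probe set of largest spread (adjusted p = 0.0264), a choice that favours separated probe sets. Without variance moderation the counts became 0 members higher (1 at an unadjusted p below 0.05), 1 relative higher and 0 lower (1 unadjusted), 1 member probe set higher and 2 lower, and 3 within-gene pairs. The replicate block gave 1 member lower and 4 member probe sets higher, and 19 pairs; same-numbered arrays correlated at 0.03 and 0.09 in their deviations, which gives no basis for taking the numbers as pairs. The largest-spread choice gave 3 members lower, 3 relatives higher and 3 lower, and probe sets without a suffix gave 3 members lower. Quantile normalisation gave 3 member probe sets higher. Leaving out each array in turn gave 1 to 2 members lower, 1 to 2 relatives lower, 1 to 3 member probe sets higher, 4 to 6 lower, and 8 to 18 pairs, with 8 when monocyte replicate 1 was left out. Among the lists, the replicate block gave 2 granulocyte and monocyte targets higher in place of 0 (0 at limma's unadjusted p below 0.05) and 3 neutrophil genes higher in place of 1, and leaving out brain DC replicate 2 gave 1 endothelial gene lower in place of 0. Of 780 combinations of 60 called list genes with the alternatives, 737 kept the call; 25 of the losses came without variance moderation. Signs turned only in values that were not called. Cebpb gave 0.53 (largest spread), 0.074 (quantile) and -0.52 to 0.24 with an array left out; Klf4 -0.016 (array medians) and -0.11 to 0.11; Klf7 -0.013 (array medians), -0.40 (largest spread) and -0.35 to 0.41; Klf1 -0.18 to 0.46; and Fosl2 -0.034 (array medians), -0.024 (replicate block) and -0.15 to 0.16. Klf5 gave -0.17 (no suffix), Klf9 0.11 (median of probe sets) and Klf12 -0.34 (largest spread). Probe set 1421604_a_at ranged from -0.057 to 0.40 with an array left out, 1432543_a_at from -0.055 to 0.32, and 1456030_at from -0.024 to 0.14, with -0.015 under the block. The lists and the within-gene pairs were put through the alternatives after the data had been seen. The filter on dim genes was not run, since the values are centred. Centred values also leave signal over background unknown.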
